A study of Mus musculus with 8 samples.

Results

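Nonclassical monocytes were described here in single-cell RNA profiles of the neonatal mouse lung. A cell was counted as a nonclassical monocyte when it held at least 2 unique molecular identifiers (UMIs, tags that count captured molecules) of Ace, Adgre4 and Eno3 together, no F13a1, no Cdh5 or Cldn5, at least 1 UMI of the leukocyte gene Ptprc, fewer than 5 UMIs of the 3 C1q genes, fewer than 3 of Mki67 and Top2a and fewer than 10 of Dppa5a. This rule found 2103 of 11806 cells, or 17.8% (exact 95% interval for counting error 17.1% to 18.5%). They were set against 566 classical monocytes, taken as cells with at least 2 UMIs of F13a1 and at least 1 of Ly6c2 (4.79% of all cells), and against all 9703 other cells. The profiles came from C57BL6/J wild-type pups of 5 days of age, 4 libraries from pups kept in hyperoxia (65% oxygen, a model of bronchopulmonary dysplasia) and 4 from pups kept in air (21% oxygen). All of these pups, those in air included, had been exposed to lipopolysaccharide before birth, on day 14 of gestation. The cells had been gated by flow cytometry from frozen lung tissue, with gates for endothelium, epithelium and leukocytes, so that the share of any cell type is set in part by the sort. The table of cells carried 0 column names that matched a library, so all cells were treated as 1 pooled sample: hyperoxia and air could not be compared, and no p-value is given.

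Nonclassical monocytes are the monocytes that crawl along the inner surface of small vessels, including those of the lung, and are therefore also called patrolling monocytes. In the mouse they arise largely from classical Ly6C-high monocytes under the control of the nuclear receptor NR4A1, depend on signals through CSF1R and CX3CR1 for their survival, and carry low Ly6C, high CX3CR1, CD43 and the Fc receptor FcγRIV. Classical monocytes carry the chemokine receptor CCR2, which serves their exit from the bone marrow and entry into inflamed tissue.

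The nonclassical monocytes held 11367910 UMIs in all, with a median of 3716 UMIs and 1665 detected genes per cell, and the classical monocytes held 5049186 UMIs with a median of 6182 UMIs and 2289.5 genes. The column names fell into 8 alphabetical stretches, called runs of barcodes here and numbered in the order of the table. Which library and which oxygen group a run came from is not known. The nonclassical monocytes made up 12.3% to 29.4% of the cells of a run (median 15.9%), with 46 to 740 cells per run, and there were 2.02 to 12.1 of them per classical monocyte. Runs 6 and 8 stood apart in the level of Gm42418, a transcript that overlaps ribosomal RNA sequence, with 60891 and 36417 CPM (UMIs scaled to a group total of 1000000) in the nonclassical monocytes against 3125 to 13143 CPM in the other 6 runs. Of the cell barcodes, 12 occurred in more than 1 run, and 3 nonclassical monocytes carried such a barcode. Levels are the summed UMIs of a group as CPM, folds are ratios of these levels, and intervals are exact 95% intervals that cover counting error only. Values over runs are given as lowest, median and highest, over 8 runs for the nonclassical monocytes and over the 7 runs with at least 20 cells of both kinds for the classical monocytes.

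The 3 genes that chose the cells are a description and no result. Adgre4, an adhesion receptor of the EGF-TM7 family (chromosome 17, 55749984 to 55853662, mouse build GRCm38), was detected in 94.7% of the nonclassical monocytes. Ace, the angiotensin-converting enzyme (chromosome 11, 105967945 to 105989964), was detected in 63.7%, and Eno3, an enolase (chromosome 11, 70657202 to 70662513), in 51.6%. All 3 genes were found in 36.7% of the cells, and 26.7% of the cells were chosen on the UMIs of a single gene. The cells held a median of 5 rule UMIs and at most 64.

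Cx3cr1, the fractalkine receptor (chromosome 9, 119901616 to 120069879), took no part in the rule. It is a marker of these cells that macrophages share, as given below. Its level was 514 CPM in the nonclassical monocytes, with 273, 538 and 685 CPM over runs, against 163 CPM in the classical monocytes, with 58.7, 167 and 229 CPM over runs. The runs of the 2 groups did not overlap, and the fold was 1.65 on the log2 scale (1.55 to 1.76). After each cell was thinned to 2000 UMIs, Cx3cr1 was found in 58.2% of the nonclassical monocytes and in 20.6% of the classical monocytes. In T cells, most of which should lack it, the share was 2.64%. Without thinning these shares were 71.8%, 47.2% and 7.31%, at median depths of 3716, 6182 and 4894 UMIs. Thinning left out 300 nonclassical monocytes, 7 classical monocytes and 47 T cells that were shallower than 2000 UMIs. Sftpc, a surfactant gene of alveolar type 2 cells, had a UMI in 12.4% of thinned nonclassical monocytes, 12.2% of classical monocytes and 12.9% of T cells.

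The boundary of the rule cut through a continuous range. Just inside, 357 cells had 2 rule UMIs and Cx3cr1 at 180 CPM, and just outside, 703 cells that met the other conditions had 1 rule UMI and Cx3cr1 at 119 CPM. Cells with 3 to 5 rule UMIs had Cx3cr1 at 451 CPM, cells with 6 to 10 at 580 CPM and cells with more than 10 at 677 CPM. Among the chosen cells, the macrophage genes Mrc1 and Plet1 followed the opposite course. The mannose receptor Mrc1 was at 199 CPM in the cells with 2 rule UMIs and at 18.4 CPM in those with more than 10. Plet1 was at 285 CPM and 2.27 CPM in these cells. The classical gene Ly6c2 had no steady course, with 128 CPM at 2 rule UMIs, 101 CPM at 3 to 5, 115 CPM at 6 to 10 and 59.5 CPM above 10.

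**Figure D1:**
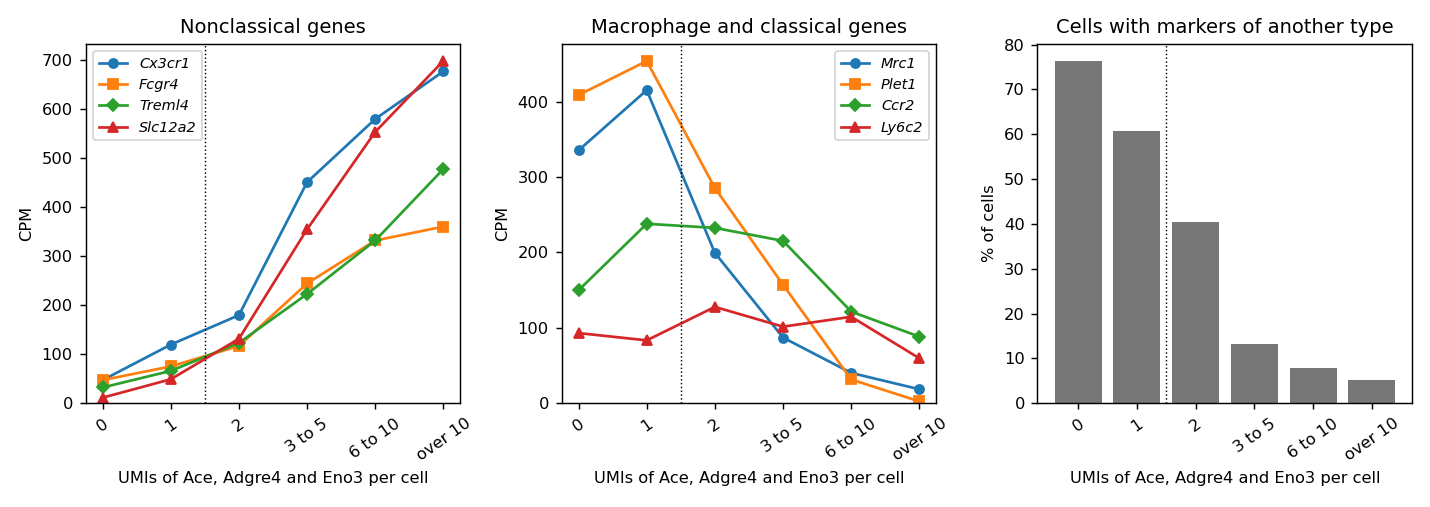
Level of nonclassical genes (left) and of macrophage and classical genes (middle) in CPM, and the share of cells with markers of another cell type in percent (right), by the number of Ace, Adgre4 and Eno3 UMIs per cell among cells that met the other conditions of the rule. The dotted line marks the rule: Cx3cr1 was 119 CPM at 1 UMI and 677 CPM above 10 UMIs, while the share of cells with other markers was 60.7% and 5.27%.

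Some of the chosen cells carried markers of another cell type. With limits set after the data had been seen, 214 of the nonclassical monocytes (10.2%) held at least 2 UMIs of the macrophage genes Mrc1, Plet1, Chil3 and Mertk, 65 (3.09%) held at least 5 UMIs of the class II genes H2-Aa, H2-Ab1 and H2-Eb1, and 44 (2.09%) held at least 5 UMIs of the neutrophil genes S100a9, Ngp, Camp and Ltf. With the surfactant genes and the T cell receptor complex included, 308 nonclassical monocytes (14.6%) and 125 classical monocytes (22.1%) carried such markers. In the classical monocytes these were mainly the neutrophil genes (79 cells). These are called marker-bearing cells. They were 7.23% to 27.1% of the nonclassical monocytes of a run and 40.3% of those with only 2 rule UMIs. Folds of the genes described are given without them where that changed the call or moved the fold by more than 1.5 times. Leaving them out lowers the genes that define them in either group by that choice. Whether these cells were doublets, free RNA or cells of another type was not tested.

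Against the classical monocytes, the genes with the highest folds included the transporter Slc12a2, the scavenger receptor Cd36, the survival gene Bcl2, the inhibitory receptor Lair1 and the known nonclassical surface genes Spn, Fcgr4 and Treml4. Of 5851 measured genes, with a mean of at least 20 CPM over the 2 groups, 266 (4.55%) were at least 2-fold higher and 109 (1.86%) at least 2-fold lower in the nonclassical monocytes, and the median log2 fold of all measured genes was 0.06. Without marker-bearing cells, 333 of 5774 genes (5.77%) were higher and 167 (2.89%) lower. Of the 15 highest genes with at least 100 CPM and the same direction in all 7 runs, all 15 stayed past 2-fold without the marker-bearing cells. All 15 also had runs that did not overlap between the groups. Their median log2 fold was 2.91. These genes were chosen by fold and by direction over runs, so runs that stand apart follow in part from the choice. The share of such genes among all measured genes was not computed.

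Slc12a2, the sodium-potassium-chloride cotransporter NKCC1, had the highest fold of these 15 genes. Its level was 483 CPM in the nonclassical monocytes (125, 437 and 637 CPM over runs) and 14.1 CPM in the classical monocytes (3.29, 18.1 and 70.4 CPM over runs), a log2 fold of 5.10 (4.77 to 5.46). It was found in 48.8% of thinned nonclassical monocytes, 1.97% of classical monocytes and 1.15% of T cells. Cd36, the scavenger receptor that takes up fatty acids and oxidised lipoproteins, followed at 507 CPM (177, 428 and 905 CPM over runs) against 21.8 CPM (0, 13.5 and 81.5 CPM over runs), a log2 fold of 4.54 (4.27 to 4.83). Its log2 fold was 5.57 without marker-bearing cells and 5.27 without run 2.

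Genes of survival and differentiation were also among the 15. Bcl2, which blocks apoptosis, was at 125 CPM (60.2, 109 and 241 CPM over runs) against 8.12 CPM (1.98, 10.1 and 18.5 CPM over runs), a log2 fold of 3.95 (3.50 to 4.43). Hes1, a repressor induced by Notch signalling, was at 245 CPM (94.0, 213 and 594 CPM over runs) against 21.6 CPM (4.05, 23.5 and 39.9 CPM over runs), a log2 fold of 3.50. In neither gene did the runs of nonclassical monocytes reach those of the classical monocytes. The nuclear receptor Pparg, a regulator of lipid genes, was at 187 CPM against 30.1 CPM, with a log2 fold of 2.64 and of 3.38 without run 6. Dusp16, a phosphatase of stress-activated MAP kinases, was at 757 CPM against 120 CPM, and Cyth3, an exchange factor for ARF proteins, at 108 CPM against 15.8 CPM.

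The surface genes that define the subset in flow cytometry stood in the same group. Spn, which encodes CD43, was at 151 CPM (104, 163 and 218 CPM over runs) in the nonclassical monocytes against 19.2 CPM (0, 14.5 and 32.0 CPM over runs) in the classical monocytes, a log2 fold of 2.98. Fcgr4, the Fc receptor FcγRIV (chromosome 1, 171018920 to 171029761), was at 284 CPM (192, 297 and 415 CPM over runs) against 38.2 CPM (0, 40.6 and 51.4 CPM over runs), a log2 fold of 2.89. Treml4, a receptor of the TREM family (chromosome 17, 48264295 to 48275360), was at 320 CPM (249, 323 and 428 CPM over runs) against 42.6 CPM (23.5, 36.2 and 74.2 CPM over runs), a log2 fold of 2.91. The runs of the 2 groups stood apart in all 3 genes. Among inhibitory receptors and ligands, the collagen receptor Lair1 was at 248 CPM against 33.3 CPM (log2 fold 2.90, and 3.81 without marker-bearing cells) and Cd274, which encodes PD-L1, at 188 CPM against 27.7 CPM (log2 fold 2.76). Gngt2, a G protein gamma subunit, was at 836 CPM against 107 CPM.

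Both Adgrl3 and Bcl2a1d carry a limit. Adgrl3, an adhesion G protein-coupled receptor, was at 228 CPM against 14.7 CPM in the classical monocytes, but at 226 CPM in all other cells and at 251 CPM in cells with at least 5 C1q UMIs. Its log2 fold of 3.96 was 2.82 without marker-bearing cells and 4.61 without run 2. Bcl2a1d, an anti-apoptotic gene, was at 190 CPM against 34.5 CPM, and shares reads with near-identical copies. When the classical monocytes were held to the same exclusions and to 0 rule UMIs, which left 283 cells, the log2 folds were 7.04 for Slc12a2, 5.86 for Cd36, 5.63 for Adgrl3, 5.09 for Bcl2 and 4.66 for Hes1. Under the same change that of Cx3cr1 was 2.30. Cells with rule UMIs were taken out of the classical group here, so larger folds of genes that rise with rule UMIs can follow from this choice.

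**Figure D2:**
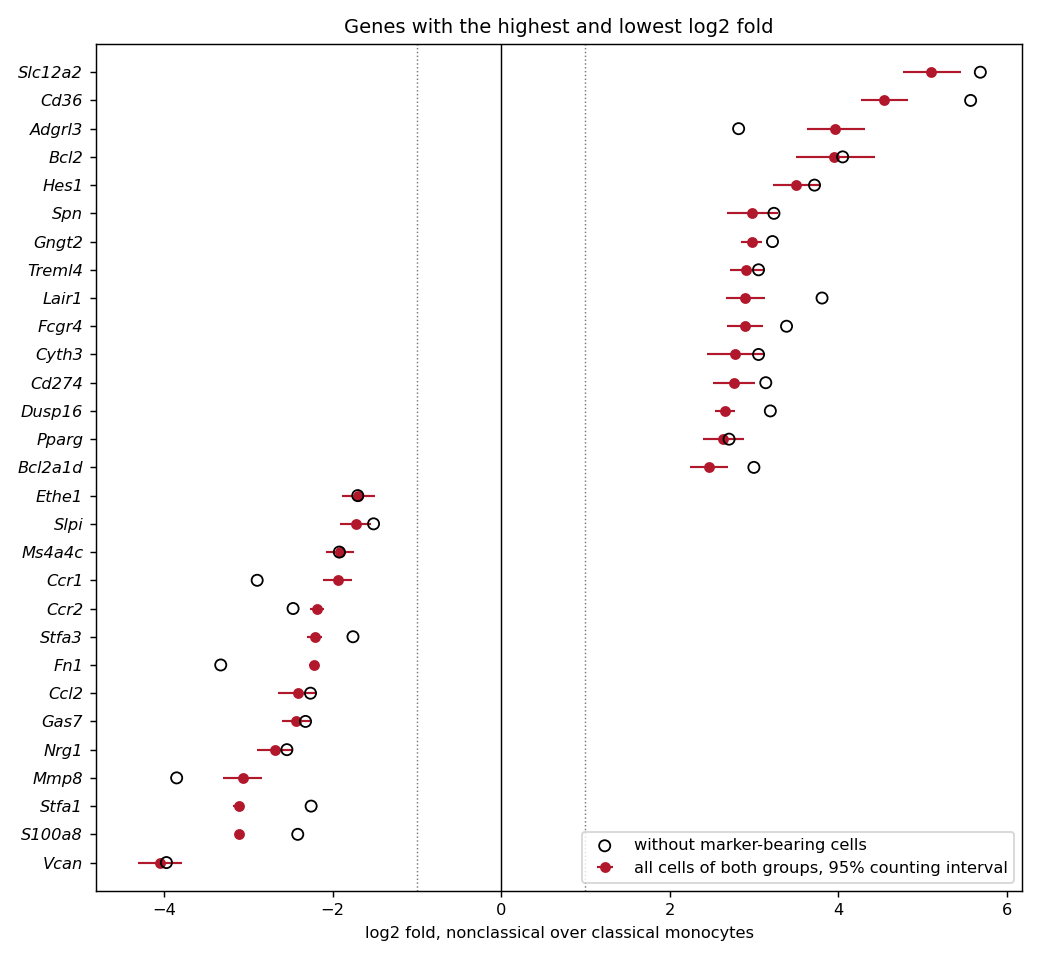
Log2 fold of nonclassical over classical monocytes (horizontal axis) for the 15 highest genes and 14 of the 15 lowest genes. Filled points with bars are all cells with the 95% counting interval, open points leave out marker-bearing cells, and dotted lines mark 2-fold. Slc12a2 stood at 5.10 and Vcan at -4.04, and all genes shown kept their side of the 2-fold lines without marker-bearing cells.

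The genes with the lowest folds included the homing receptor Ccr2, the matrix genes Vcan and Fn1 and the collagenase gene Mmp8, all of them known from classical monocytes. Vcan, the matrix proteoglycan versican (chromosome 13, 89655312 to 89742509), was at 12.5 CPM in the nonclassical monocytes (4.56, 9.68 and 29.1 CPM over runs) and at 206 CPM in the classical monocytes (129, 170 and 271 CPM over runs), a log2 fold of -4.04 (-4.31 to -3.79). Vcan had a UMI in 1.83% of thinned nonclassical monocytes, against 24.9% of classical monocytes. Ccr2, the receptor for CCL2, was at 152 CPM (102, 148 and 190 CPM over runs) against 693 CPM (475, 571 and 896 CPM over runs), a log2 fold of -2.19 (-2.27 to -2.10). It had a UMI in 18.5% of thinned nonclassical monocytes and 71.6% of classical monocytes, and also in 19.7% of T cells, some of which express it.

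Fn1, fibronectin, was at 284 CPM (147, 222 and 492 CPM over runs) against 1325 CPM (984, 1244 and 1713 CPM over runs), with a log2 fold of -2.22 and of -3.33 without marker-bearing cells. Ccr1, another chemokine receptor, was at 37.6 CPM against 144 CPM, and its log2 fold of -1.94 was -2.89 without marker-bearing cells. The collagenase Mmp8 was at 17.1 CPM against 143 CPM, with a log2 fold of -3.06 and of -3.85 without marker-bearing cells. The chemokine gene Ccl2 was at 20.1 CPM (4.56, 23.2 and 61.1 CPM over runs) against 107 CPM (24.3, 112 and 185 CPM over runs), and here the runs of the 2 groups overlapped. Ms4a4c, Gas7, Nrg1, Slpi and Ethe1 had log2 folds between -1.69 and -2.68.

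Of the neutrophil-associated genes of this set, S100a8 and Stfa1 had smaller folds when marker-bearing cells or run 1 were left out, and stayed past 2-fold. S100a8 was at 700 CPM (62.6, 609 and 1364 CPM over runs) in the nonclassical monocytes and at 6057 CPM (883, 3274 and 12714.5 CPM over runs) in the classical monocytes, and the runs overlapped. Its log2 fold of -3.11 was -2.41 without marker-bearing cells and -2.49 without run 1, and that of the cystatin gene Stfa1 was -3.11, -2.25 and -2.28. Marker-bearing cells with neutrophil genes were 2.09% of the nonclassical and 14.0% of the classical monocytes. The log2 fold of S100a9, one of the genes that define them, was -2.61 with them, -0.18 without them and -0.60 without run 1. Stfa1 and Stfa3 belong to a family of near-identical genes and their counts are uncertain. Of the 15 lowest genes, 11 had runs that did not overlap, which follows in part from choosing them by fold and by direction over runs. The share of such genes among all measured genes was not computed, so this count has no background to be read against.

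**Figure D3:**
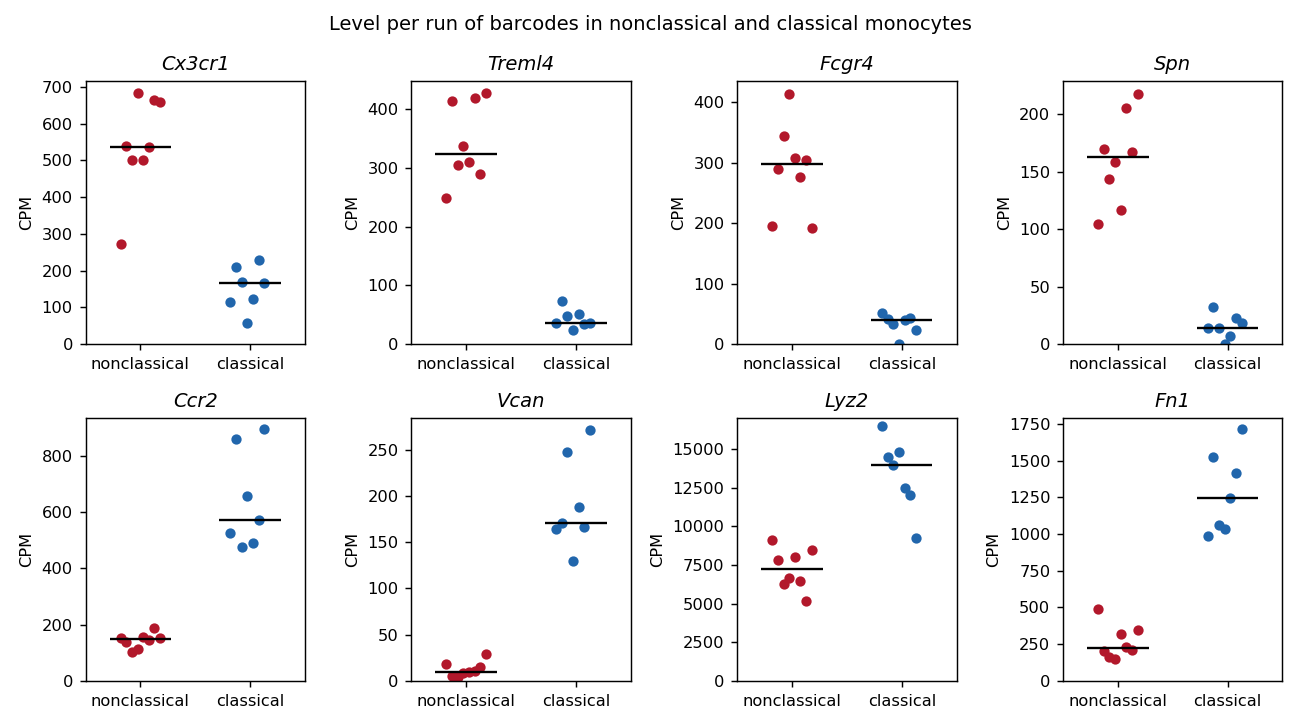
Level in CPM of 4 genes that were higher and 4 that were lower in nonclassical monocytes, 1 point per run of barcodes (8 runs for the nonclassical, 7 for the classical monocytes) with a line at the median. The 8 genes are a chosen set and do not stand for all measured genes. In all 8 the runs of the 2 groups stood apart, as for Cx3cr1 (273 to 685 CPM against 58.7 to 229 CPM) and Ccr2 (102 to 190 CPM against 475 to 896 CPM).

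Lists of genes by function were then read against the background of 4.55% of genes higher and 1.86% lower. The lists were drawn up with earlier results of these data known, so that their counts describe the cells and test nothing. Of 22 genes listed as nonclassical, all measured, 17 were at least 2-fold higher and 0 lower, with a median log2 fold of 2.13. Cd300e, an activating receptor of the CD300 family (chromosome 11, 115051917 to 115062177), was at 75.5 CPM (59.7, 76.7 and 105 CPM over runs) against 1.39 CPM (0, 1.35 and 3.69 CPM over runs), a log2 fold of 5.77 (4.72 to 7.09). It was 5.04 in thinned cells and 4.14 with each run weighing the same. Itgal, the alpha chain of the integrin LFA-1 with which patrolling cells hold to endothelium, was at 972 CPM (726, 943 and 1246 CPM over runs) against 332 CPM (258, 346 and 476 CPM over runs). Pglyrp1, a peptidoglycan recognition protein, was at 522 CPM against 150 CPM, with a log2 fold of 1.80 and of 2.63 without marker-bearing cells. Among genes that took no part in the rule, Cx3cr1, Spn, Fcgr4, Treml4 and Itgal were higher and Ccr2 and Vcan lower. The classical monocytes were chosen on F13a1 and Ly6c2, so lower classical genes follow in part from that choice. The 5 genes of this list that did not pass 2-fold were Apoc2, Clec4a3, Clec4a1, Trem3 and Tnfrsf1b, with log2 folds from 0.21 to 0.76. Without marker-bearing cells 18 of 22 were higher, with Trem3 added at a log2 fold of 1.18.

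Of 24 genes listed as classical, 18 were measured outside the rule, of which 8 were lower, 1 was higher and the median log2 fold was -0.91. Besides the genes above, Prtn3, the granule protease proteinase 3, was at 4.22 CPM against 55.1 CPM and Mgst1, a glutathione transferase, at 167 CPM against 399 CPM. Lyz2, lysozyme, was at 7095 CPM (5151, 7241 and 9091 CPM over runs) in the nonclassical and at 13220.3 CPM (9255, 13957 and 16462 CPM over runs) in the classical monocytes, a log2 fold of -0.90 with runs that did not overlap, and of -1.07 without marker-bearing cells. Plac8, which is often used as a classical marker, was within 2-fold, with 3479 CPM against 2915 CPM. The single higher gene was Chil3, a chitinase-like protein that alveolar macrophages also make. Its log2 fold of 1.60 was -0.51 without marker-bearing cells, which Chil3 helped to define. Without those cells 9 of 17 measured genes of this list were lower and 0 higher.

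Among transcription factors, 4 of 37 measured genes were higher and 0 lower, with a median log2 fold of 0.14. Nr4a1, the nuclear receptor on which the subset depends, was at 888 CPM (493, 879 and 1425 CPM over runs) in the nonclassical and at 381 CPM (236, 425 and 631 CPM over runs) in the classical monocytes, a log2 fold of 1.22 (1.15 to 1.29) with runs that overlapped. Tcf7l2, a mediator of Wnt signalling, was at 496 CPM against 97.8 CPM, Pou2f2, the octamer factor OCT2, at 592 CPM against 165 CPM, and Bcl6, a repressor, at 161 CPM against 67.9 CPM. Nr4a1 is also an immediate-early gene that tissue dissociation induces. It alone among the 17 measured genes of the dissociation and stress list passed 2-fold, while without marker-bearing cells Fosb (-1.15) and Egr1 (-1.02) were also past it, both lower. Fos was at 1771 CPM against 2425 CPM and Egr1 at 138 CPM against 275 CPM, both lower in value in the nonclassical monocytes. The median log2 fold of that list was -0.002. The part of dissociation in the fold of Nr4a1 was not tested. The factors Cebpb, Klf4, Klf2 and Spi1, which act throughout the monocyte lineage, had log2 folds from 0.49 to 0.75.

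Adhesion and trafficking genes went in both directions, with 7 of 26 measured genes higher and 4 lower. The higher genes were the integrin chains Itgal, Itgax and Itga4, the vessel-wall adhesion molecule Pecam1, Spn, Cx3cr1 and S1pr5. S1pr5, a sphingosine-1-phosphate receptor that in the mouse serves the exit of these monocytes from the bone marrow, was at 67.1 CPM (31.2, 66.4 and 115 CPM over runs) against 10.9 CPM (0, 9.44 and 16.7 CPM over runs), a log2 fold of 2.62. Itga4, the alpha chain of VLA-4, was at 1503 CPM against 639 CPM, and Pecam1 at 60.5 CPM against 17.6 CPM (log2 fold 1.78, and 2.52 against the 283 classical monocytes with the same exclusions). Ccr1, Ccr2 and Jaml were among the lower genes. The log2 fold of Jaml, a junctional adhesion molecule, was only -1.06, and it was -0.82 without run 1, -0.99 without run 3, -0.92 without run 8 and -0.53 without marker-bearing cells. Without those cells 8 of 23 measured genes were higher and 4 lower.

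Of 15 measured Fc receptor and complement genes, 2 were higher and 1 lower. Beside Fcgr4, the neonatal Fc receptor Fcgrt was at 140 CPM (88.0, 147 and 196 CPM over runs) against 49.7 CPM (37.5, 55.3 and 67.8 CPM over runs). C3ar1, the receptor for the complement fragment C3a, was at 10.5 CPM against 44.2 CPM. Itgb2, the beta chain shared by LFA-1 and the complement receptor CR3, was at 467 CPM against 236 CPM, just short of 2-fold at a log2 fold of 0.98 and past it at 1.16 without marker-bearing cells. Without those cells 4 of 14 measured genes of this list were higher and 0 lower. The shared signalling chain Fcer1g had a log2 fold of 0.41.

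Of 25 measured lipid and scavenger genes, 8 were higher and 1 lower, with a median log2 fold of 0.36. Cd36 and Pparg were among the higher genes. Abcg1, which exports cholesterol, was at 190 CPM (148, 196 and 233 CPM over runs) against 73.9 CPM (44.3, 71.3 and 103 CPM over runs), Lpl, lipoprotein lipase, at 154 CPM against 45.4 CPM, and Hmox1, heme oxygenase 1, at 159 CPM against 67.7 CPM. These 5 genes stayed past 2-fold without marker-bearing cells. The efferocytosis receptors Mertk and Axl and the mannose receptor Mrc1 had log2 folds of 1.5, 1.2 and 1.80 in all cells and of -0.78, -0.33 and -0.11 without marker-bearing cells, which Mrc1 and Mertk helped to define. Without run 5 that of Axl was 0.89, and against the 283 classical monocytes with the same exclusions that of Mrc1 was 3.57. Msr1, scavenger receptor A, was the 1 lower gene. Without marker-bearing cells 5 of 22 measured genes were higher and 1 lower.

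Growth factor receptors and survival genes held 6 higher and 0 lower of 29 measured. Csf1r, the receptor for CSF1 and IL-34, was at 622 CPM (506, 649 and 751 CPM over runs) against 273 CPM (217, 265 and 393 CPM over runs), a log2 fold of 1.19 with runs that did not overlap. It had a UMI in 67.6% of thinned nonclassical monocytes, 35.1% of classical monocytes and 1.95% of T cells. Tgfbr1, a TGF-beta receptor, was at 228 CPM against 89.9 CPM. The other 4 were Bcl2 and the near-identical Bcl2a1a, Bcl2a1b and Bcl2a1d, whose separate counts are uncertain and whose log2 folds were 2.23, 2.07 and 2.46. Without marker-bearing cells that of Bcl2a1b was 2.75, and 7 of 30 measured genes of the list were higher and 1 lower.

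Cytokine and chemokine genes were mostly within 2-fold, with 1 of 22 measured genes higher and 4 lower. Il1b, the precursor of interleukin 1 beta, was at 661 CPM (410, 682 and 780 CPM over runs) in the nonclassical monocytes against 300.05 CPM (175, 305 and 392 CPM over runs) in the classical monocytes. Its log2 fold of 1.14 was 0.99 without run 7. Lower were Ccl2, the prostaglandin synthase Ptgs2 (22.7 CPM against 74.3 CPM), the cytokine Osm (79.9 CPM against 188 CPM) and thrombospondin Thbs1 (608 CPM against 1343 CPM, a log2 fold of -1.14 and of -0.95 without marker-bearing cells). Without marker-bearing cells 1 of 20 measured genes was higher and 7 were lower, with Il18 (-1.11), Ccl5 (-3.82), Ccl9 (-1.11) and Vegfa (-1.22) added to the lower genes. Tnf was at 46.8 CPM against 32.5 CPM, and Ccl12 and Il12a had 0 UMIs in the nonclassical monocytes, which allows up to 0.264 CPM.

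Of 33 measured pattern recognition genes, 3 were higher and 1 lower. Tlr7, the endosomal receptor for single-stranded RNA through which these cells are known to sense nucleic acids, was at 90.3 CPM (73.9, 91.7 and 121 CPM over runs) against 37.2 CPM (8.73, 46.1 and 58.7 CPM over runs), and the runs did not overlap. Nod1, a sensor of bacterial peptidoglycan, was at 65.4 CPM against 31.1 CPM, with a log2 fold of 1.07 that was 0.87 without run 7. Cd14, the co-receptor for lipopolysaccharide, was at 178 CPM against 363 CPM, a log2 fold of -1.03 that fell short of 2-fold without run 1 (-0.88), run 6 (-0.97) or marker-bearing cells (-0.96). Tlr4 was at 44.5 CPM against 52.7 CPM. Without marker-bearing cells 7 of 32 measured genes were higher, with Irak3, Clec4n, Trem1 and Trem3 added at log2 folds of 1.10 to 1.3, and Clec4a2 (-1.28) was lower in place of Cd14. Interferon-response genes had a median log2 fold of -0.51, with 0 of 19 measured genes higher and 2 lower. Ifi203 was at 68.1 CPM (50.2, 69.6 and 85.7 CPM over runs) against 162 CPM (115, 163 and 271 CPM over runs), and Isg15 at 25.2 CPM against 50.5 CPM. The log2 fold of Isg15 was -1.0003, fell short of 2-fold without any of runs 1, 2, 3, 5 and 6 (-0.99 to -0.90) and was -1.53 without marker-bearing cells.

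Of 20 antigen presentation genes 5 were higher, and the class II genes among them moved with the marker-bearing cells. H2-Aa was at 142 CPM (2.27, 93.7 and 346 CPM over runs) against 20.8 CPM (0, 20.4 and 223 CPM over runs), and H2-Ab1, H2-Eb1 and the invariant chain Cd74 had log2 folds of 2.94, 2.99 and 1.89. All 4 genes were higher in 5 of 7 runs. Without marker-bearing cells, which are defined on 3 of them, the log2 folds were -0.047 for H2-Aa, 1.63 for H2-Ab1, at 4.62 CPM against 1.5 CPM, 0.80 for H2-Eb1 and 0.88 for Cd74. Without marker-bearing cells 3 of 16 measured genes of the list were higher and 1 lower. Without run 1 the log2 fold of H2-Aa was 1.55, that of H2-Ab1 2.07, that of H2-Eb1 1.70 and that of Cd74 1.19, and without run 3 those of H2-Ab1 and H2-Eb1 were 4.30 and 4.32. In thinned cells H2-Aa had a UMI in 3.72% of the nonclassical monocytes, 1.07% of the classical monocytes and 1.61% of T cells. The class I genes H2-K1, H2-D1 and B2m were within 2-fold in all cells. H2-K1 was at 775 CPM against 397 CPM (log2 fold 0.96, and 1.14 without marker-bearing cells). H2-D1 was at 1392 CPM against 773 CPM and B2m, the light chain of class I, at 2490 CPM against 1436 CPM. The runs of the groups did not overlap in these genes, but the share of all measured genes with such runs was not computed.

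Beside Ace, the renin-angiotensin list held no gene past the fold. None of its 6 measured genes passed 2-fold, and the aminopeptidase Lnpep had the largest log2 fold at 0.38. The log2 fold of the endothelin-converting enzyme Ece1 was 0.06, and -1.02 without marker-bearing cells. Agt, Ren1, Mas1 and the receptors Agtr1a and Agtr2 had 0 UMIs in the nonclassical monocytes, each of which allows up to 0.264 CPM, as did Bdkrb2 and Nos2.

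Cytoskeleton and motility genes were near the median of all genes, with 3 of 41 higher and 3 lower. The tetraspanins Cd9 and Cd81 were at 720 CPM against 184 CPM and at 81.0 CPM against 12.3 CPM (for Cd81 a log2 fold of 2.72, and of 3.79 without marker-bearing cells). In thinned cells the log2 fold of Cd81 was 4.52, and that of Cd9 was 2.83 in place of 1.97. Without marker-bearing cells 4 of 41 genes of this list were higher and 5 lower. The intermediate filament gene Vim was at 953 CPM against 1942 CPM, a log2 fold of -1.03 that was -0.97 without run 6 and -0.996 without run 4. Of 17 glycolysis genes 1 was higher, the lactate exporter Slc16a3 with 160 CPM (122, 157 and 199.9 CPM over runs) against 68.7 CPM (29.5, 58.1 and 113 CPM over runs). Of 27 antioxidant and iron genes, Hmox1 was higher and Mgst1 lower, and without marker-bearing cells 2 of 26 were higher and 2 lower. Cell cycle genes were low, with 5 of 7 measured genes lower, among them Ccnb2 (3.08 CPM against 37.2 CPM, a log2 fold of -3.60 and of -4.63 without run 6) and Ube2c (5.01 CPM against 53.5 CPM). The rule excluded cells with 3 or more UMIs of Mki67 and Top2a from the nonclassical group and from no other. Against the 283 classical monocytes with all the same exclusions and 0 rule UMIs, the median log2 fold of this list was -1.12 in place of -1.98.

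For 9 further genes, thinning or another weighing of the cells moved the fold against the classical monocytes by more than 1.5 times and left it past 2-fold. In thinned cells the log2 fold was 3.19 for Bcl2, 3.73 for Cd274, 4.10 for Lair1, 3.32 for Bcl2a1a, -1.10 for C3ar1 and -2.84 for Fn1. As means of per-cell CPM it was 3.50 for Fcgr4, 5.14 for Cd36 and 3.14 for Bcl2a1d.

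**Figure D4:**
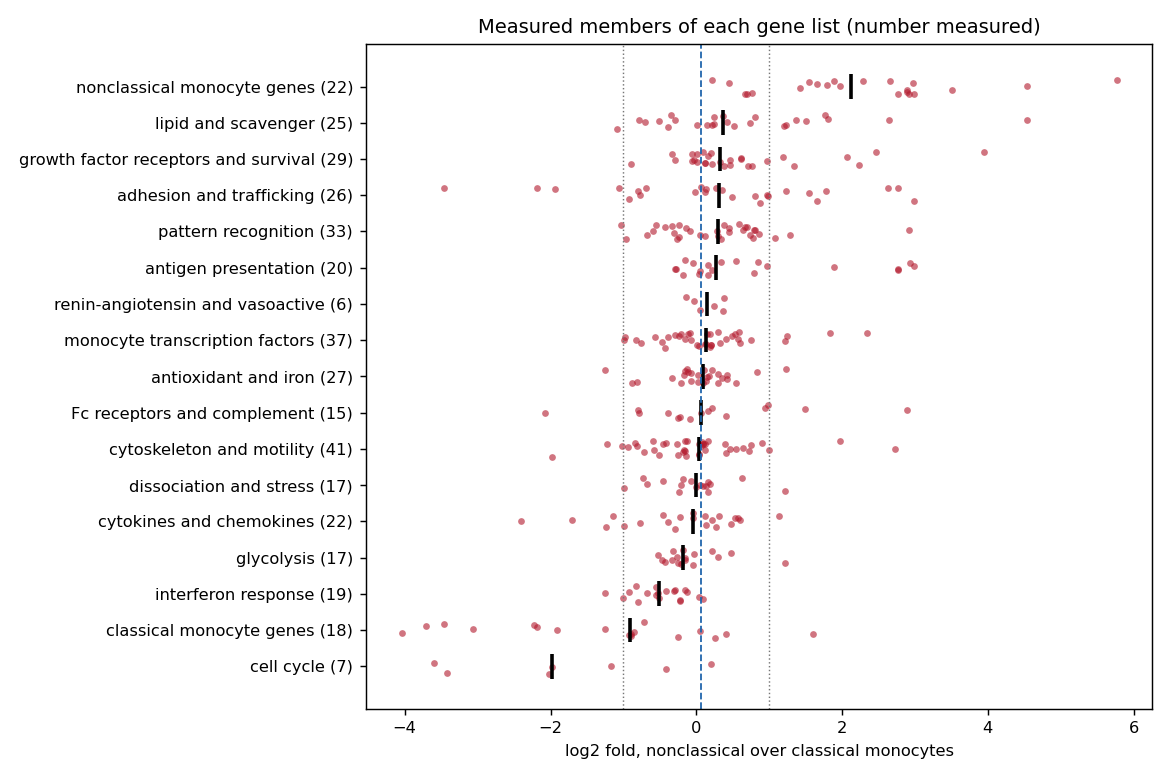
Log2 fold of nonclassical over classical monocytes (horizontal axis) for each measured member of each gene list, 1 point per gene, with the number measured in brackets. Black bars are the list medians, the blue dashed line is the median of all measured genes (0.06) and dotted lines mark 2-fold. The list of nonclassical genes has its median at 2.13 and that of classical genes at -0.91.

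Against all 9703 other cells, 452 of 6390 measured genes (7.07%) were at least 2-fold higher and 595 (9.31%) at least 2-fold lower, with a median log2 fold of -0.05. With marker-bearing cells left out of the nonclassical monocytes only, 598 of 6345 genes (9.42%) were higher and 740 (11.7%) lower. All other cells were unchanged there, so lower levels of genes of other cell types follow in part from this choice. The 15 genes with the highest folds, at least 100 CPM and the same direction in all 8 runs, were led by Treml4 at 320 CPM against 30.7 CPM in all other cells, a log2 fold of 3.38. Slc12a2, Spn and Fcgr4 were again among them. Pou2f2 was at 592 CPM against 77.2 CPM. Ceacam1, a homophilic adhesion molecule with an inhibitory tail, was at 169 CPM against 21.4 CPM, and Cd300ld, another CD300 receptor, at 172 CPM against 24.8 CPM. Also on the list were a pair of regulators of small GTPases. Rap1gap2, which inactivates RAP1, was at 529 CPM against 74.7 CPM and Arhgef10l, a guanine nucleotide exchange factor, at 174 CPM against 25.8 CPM.

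Of these 15 genes, 13 were also more than 2-fold above the classical monocytes and 2 were not. Serpinb2, an inhibitor of plasminogen activators, was at 116 CPM (89.4, 105 and 238 CPM over runs) in the nonclassical monocytes and at 108 CPM (71.5, 126 and 211 CPM over runs) in the classical monocytes, against 17.9 CPM in all other cells. The predicted gene Gm21188 was at 144 CPM in the nonclassical and at 104 CPM in the classical monocytes, against 23.6 CPM in all other cells. The interferon-response list, with a median log2 fold of -0.51 against the classical monocytes, had 9 of 18 measured genes higher than in all other cells and 0 lower, with a median log2 fold of 0.98. Ifitm3, a membrane protein that restricts viral entry, was at 2087 CPM in the nonclassical monocytes, at 2443 CPM in the classical monocytes and at 568 CPM in all other cells. Of 32 measured pattern recognition genes, 13 were higher than in all other cells and 0 lower. The myeloid oxidase gene Cybb and the metal transporter Slc11a1 were also more than 2-fold above all other cells.

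Cx3cr1 is shared with macrophages. Cx3cr1 was at 514 CPM in the nonclassical monocytes and at 451 CPM in 334 cells with at least 5 C1q UMIs, whereas Fcgr4 was at 284 CPM and 66.9 CPM, Treml4 at 320 CPM and 25.2 CPM, and Cd300e at 75.5 CPM and 4.25 CPM in these groups. Ccr2 was at 152 CPM in the nonclassical monocytes and at 681 CPM in the C1q cells, near the 693 CPM of the classical monocytes.

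Markers of other cell types were present at these summed levels. The 13 alveolar macrophage genes summed to 1091 CPM in the nonclassical monocytes (608 to 1570 CPM over runs) against 240 CPM in the classical monocytes (82.1 to 464 CPM), with 6 of 6 measured genes higher. Ear2 and Pparg made up most of this sum without marker-bearing cells, where it was 750.2 CPM against 154 CPM and only these 2 genes were measured. The neutrophil list summed to 1537 CPM against 8776 CPM, and to 595 CPM against 1393 CPM without marker-bearing cells. Its median log2 fold of 0.12 over 7 measured genes was not stable. It was -1.91 without run 3, -2.36 without run 6, -1.70 in thinned cells and -1.66 as means of per-cell CPM. Without marker-bearing cells it was 0.31, at a mean of at least 5 CPM 1.44, and without any other run -0.02 to 0.16. Ngp and Camp, at 44.6 CPM and 44.5 CPM against 0.594 CPM and 1.98 CPM, were higher although the sum of the list was lower. Both genes overlapped between the groups over runs. The log2 fold of Ngp was 6.23, 5.64 without run 6 and 1.99 without marker-bearing cells. That of Camp was 4.49, 5.29 without run 1, 3.00 without run 6 and -0.75 without marker-bearing cells. Both genes helped to define the marker-bearing cells. The epithelial list summed to 1121 CPM against 780 CPM, and to 175 CPM against 277 CPM without marker-bearing cells. T and natural killer cell genes summed to 26.8 CPM against 31.7 CPM, platelet genes to 2.29 CPM against 17.0 CPM, B cell genes to 46.1 CPM against 45.4 CPM and endothelial genes to 56.0 CPM against 34.9 CPM. The sums for interstitial macrophages were 1396 CPM against 2261 CPM, and those for conventional dendritic cells 246 CPM against 173 CPM. Mesenchymal genes summed to 11.5 CPM against 8.91 CPM and erythroid genes to 0.792 CPM against 0.198 CPM. Among the genes at 0 UMIs in the nonclassical monocytes were Folr2 of the interstitial macrophage list, the platelet genes Ppbp, Gp9 and Gp1bb, the endothelial gene Aplnr, the ciliated cell gene Foxj1, the mesenchymal gene Lum and the erythroid genes Hbb-bt and Slc4a1. The part of these transcripts in the folds was not tested beyond leaving out the marker-bearing cells.

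The nonclassical monocytes without marker-bearing cells were split by Ly6c2, the gene of the antigen that separates the monocyte subsets in flow cytometry and that the rule for these cells did not use. At least 1 Ly6c2 UMI was found in 323 of 1795 cells (17.99%), 15.1% to 28.9% of the cells of a run, and in 12.6% of cells after thinning. The cells with Ly6c2 were deeper, with a median of 4861 UMIs against 3200 UMIs, so that log2 folds are given with those in thinned cells.

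In most of a chosen set of genes, the cells with Ly6c2 stood between the cells without it and the classical monocytes. The split was not made over all measured genes. The classical monocytes were themselves chosen on Ly6c2, so a lean towards them may follow in part from the split. Ccr2 was at 276 CPM in cells with Ly6c2 and at 90.6 CPM in cells without it, with 768 CPM in the classical monocytes, a log2 fold of 1.61 (1.44 to 1.77) that was 1.52 in thinned cells. Fn1 was at 316 CPM against 80.6 CPM (log2 fold 1.97, and 2.08 thinned), Ms4a4c at 105 CPM against 30.6 CPM (1.77, and 1.78 thinned) and Vcan at 28.6 CPM against 6.89 CPM (2.05, and 2.04 thinned). Each of these 4 genes was higher in 6 of the 6 runs with at least 20 cells of both kinds.

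In the other direction, Cd36 was at 160 CPM in cells with Ly6c2 and at 790 CPM in cells without it, against 13.2 CPM in the classical monocytes, a log2 fold of -2.31 (-2.47 to -2.15) that was -2.08 in thinned cells. Slc12a2 was at 249 CPM against 745 CPM (log2 fold -1.58, and -1.45 thinned), Cd300e at 35.4 CPM against 116 CPM (-1.71, and -1.23 thinned) and Dusp16 at 433 CPM against 1103 CPM (-1.35, and -1.42 thinned). Bcl2 was at 77.5 CPM against 188 CPM (-1.27, and -1.59 thinned) and Fcgr4 at 171 CPM against 397 CPM (-1.21). Fcgr4 was within 2-fold in thinned cells, at -0.86, and at -0.63 when the cells were split again on their thinned Ly6c2 UMIs. These 6 genes were lower in 6 of 6 runs. The differences were smaller for Treml4 (-0.79, and -0.88 thinned), Cx3cr1 (-0.43 in both) and Nr4a1 (-0.42, and -0.27 thinned). The 3 rule genes were lower as well, with log2 folds of -0.96 for Ace, -0.69 for Adgre4 and -0.70 for Eno3, and of -0.67, -0.65 and -0.85 in thinned cells. Plac8 followed another order, with 5623 CPM in cells with Ly6c2 and 3830 CPM in cells without it, both above the 3296 CPM of the classical monocytes.

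**Figure D5:**
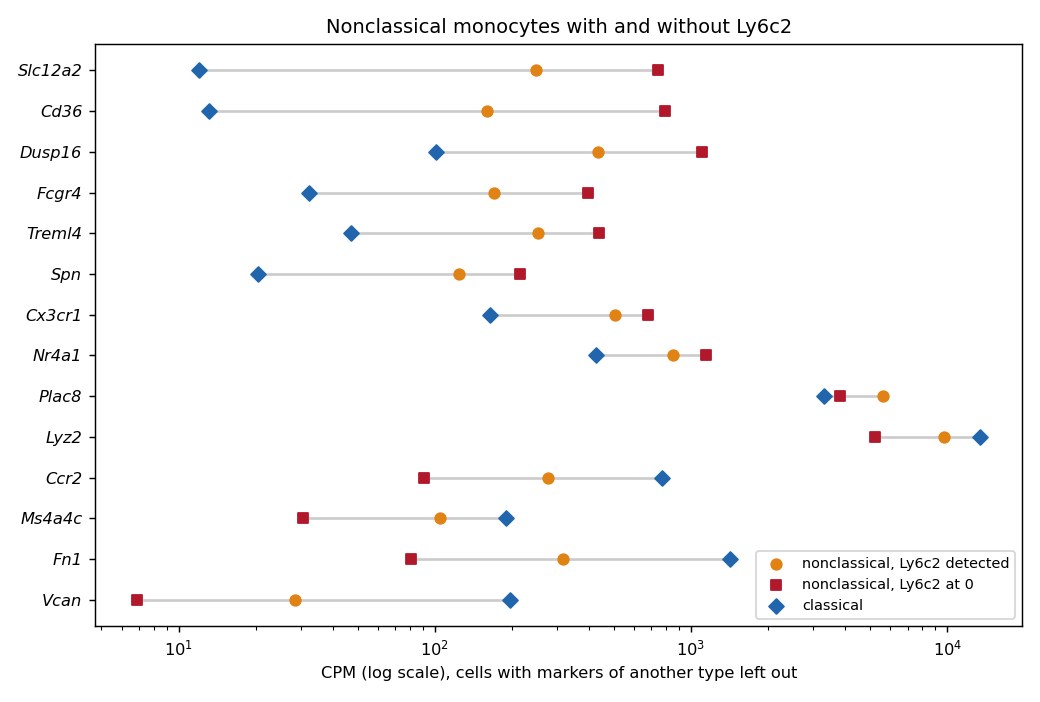
Level in CPM on a log scale of 14 chosen genes in nonclassical monocytes with Ly6c2 (orange circles), nonclassical monocytes without it (red squares) and classical monocytes (blue diamonds), marker-bearing cells left out. In 13 of the genes the circle lies between the square and the diamond, as for Cd36 at 160, 790 and 13.2 CPM, and in Plac8 it lies above both.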

How the data were processed

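The authors deposited raw UMI counts, not normalized, in 1 table of 32285 genes and 11806 cells with 77020720 UMIs. Per the submitters' processing notes, Cell Ranger and build mm10 were used; per the labels' protocols, 3' droplet libraries were sequenced. Handling of strand and intronic reads is not given in the sources used here, so overlapping and antisense genes cannot be told apart. The lowest number of genes in a cell was 800 and the highest mitochondrial share 9.99%; no further cell filter was applied. UMIs do not remove free RNA, and none was subtracted.

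Cells were chosen on raw UMIs, and the members and lists were chosen with earlier results of these data known. Counts were summed per group with Python 3.11.15, numpy 2.4.6, scipy 1.17.1 and pandas 2.3.3. With 1 pooled sample no test was made. Intervals are exact Poisson (levels), conditional binomial (folds) and Clopper-Pearson (shares). A gene was measured at a mean of at least 20 CPM over both groups and past the fold at 2-fold; the 14 genes of the rules were left out of counts. Named were the rule genes and Cx3cr1, the 15 highest and lowest against classical monocytes and the 15 highest against all other cells (at least 100 CPM, same direction in every run with at least 20 cells of both groups), and in each list up to 5 genes with the largest fold. List genes beyond these, and those picked to illustrate shared expression, were chosen after their values were seen. Mitochondrial, ribosomal protein, haemoglobin and sex-linked genes were left out of the leading genes. Of 592 listed genes, 7 were not matched. Scrublet in scanpy 1.11.5 marked 56 cells (0.474%), which was taken as a failed threshold, and no doublets were removed; removing the 193 highest-scoring cells, 38 of them nonclassical monocytes, was an alternative. Coordinates are those of GENCODE M21 on GRCm38. Some genes that enter the counts are not reported here by name. The fold and interval code was checked on simulated counts.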

Additional observations from a re-analysis of the deposited data

How the results depend on the processing

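Against classical monocytes, the 266 higher and 109 lower genes became 476 and 256 with a mean of at least 5 CPM and 172 and 58 with at least 50 CPM, and without marker-bearing cells the lower genes became 167 while the higher became 333. Of the 266 and 109 genes, 227 and 87 were also called without marker-bearing cells. The number of lists whose median lay over 0.5 from that of all genes was 5, and 8, 3 and 3 under these settings. Against all other cells, the 595 lower genes became 1920 and 178 at the 2 limits, where the filter itself changes which genes are tested, so that 43.2% of the genes past 2-fold were higher at 20 CPM, 23.05% at 5 CPM and 66.2% at 50 CPM. Leaving out each run gave 256 to 275 higher and 106 to 114 lower genes against classical monocytes, 430 to 536 higher and 549 to 697 lower against all other cells, 5 to 6 lists, and 1363 to 2057 nonclassical monocytes (16.1% to 18.7% of cells), with the 1363 left without run 7. Scaling by the median ratio gave 237 and 124 genes against classical monocytes. Of 101 named genes past 2-fold against classical monocytes, 81 stayed past it in all 19 alternatives that could be run, 14 lost it without marker-bearing cells and 12 without some run. Without marker-bearing cells the log2 fold turned for Chil3 (-0.51), Mrc1 (-0.11), Mertk (-0.78), Axl (-0.33), H2-Aa (-0.047), Camp (-0.75), Stfa2l1 (0.35) and Sftpb (-0.82). All of these genes but Axl and Stfa2l1 helped to define the marker-bearing cells, so their turn follows in part from that choice. The log2 fold of Sftpb was also -0.52 as a mean of per-cell CPM and -0.39 in thinned cells. The cause was not tested. No paired analysis was possible because the cells carry no replicate numbers. With no map from cells to libraries, no spread between animals was measured, and values in runs with few classical monocytes (20 in run 4) rest on few UMIs.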

Other observations

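Levels within the nonclassical monocytes also differed between runs of barcodes, after marker-bearing cells were left out. The chemokine gene Ccl4 ranged from 12.7 CPM in run 6 to 632 CPM in run 4 (median 199 CPM) and Ccl3 from 35.1 CPM in run 6 to 496 CPM in run 2 (median 267 CPM). The stress-induced factor Atf3 ranged from 132 CPM in run 6 to 813 CPM in run 2, Jun from 157 CPM in run 1 to 717 CPM in run 2, and Hes1 from 118 CPM in run 6 to 713 CPM in run 4. Cd36 ranged from 184 CPM in run 8 to 1020 CPM in run 7, and thrombospondin Thbs1 from 297 CPM in run 6 to 1054 CPM in run 2. The homing receptor Cxcr4 ranged from 35.8 CPM in run 6 to 277 CPM in run 4. These 8 genes were picked from a longer list of genes that varied between runs, so how often a run was lowest among them is no result. Other genes of that list were highest in run 6, among them Cmss1 (5307 CPM), Lars2 (653 CPM), Arhgap24 (348 CPM) and Gm42418 (64315 CPM of the same cells). Whether the runs differ by oxygen group, animal or library handling cannot be told apart here.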
